A study of Danio rerio with 30 samples.

Results

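The miR-23, miR-24 and miR-27 microRNAs and miR-210 were followed in the spleen of adult zebrafish that had developed at different temperatures. Members were all rows of the count table named dre-miR-23, dre-miR-24, dre-miR-27 or dre-miR-210, with any letter or arm after the number, that had a count in any library. This gave 18 of the 1591 rows with a count (8866 rows in all), and 14 of the 18 passed the low-count filter and were tested among 364 rows. The groups were LPS and control fish of 24 °C, LPS and control fish of 28 °C, and LPS and control fish of 32 °C, with 5 libraries each and 30 in all. All fish were of the AB strain, 100 days after fertilisation, and the temperature was that of embryo incubation and larval growth. Adult fish were kept at 28 °C per the labels' protocols, which do not say whether this covers the sampled fish, their parents or both. LPS fish were injected intraperitoneally with 2 µl of lipopolysaccharide of Pseudomonas aeruginosa (50 mg/ml), and their spleens were collected 12 h later. Whether controls were injected is not given in the sources used here, and the labels do not tie replicates to individual fish, so each p-value reflects the spread among these libraries, which may be technical.

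MicroRNAs (miRNAs) are short RNAs that repress messenger RNAs with a matching site, and each is cut from a hairpin whose strands are called the 5p and 3p arm. Genes of miR-23, miR-27 and miR-24 lie next to each other in vertebrates and can be cut from a shared transcript. In mammals this cluster is known from blood vessel growth, where miR-23 and miR-27 act in endothelial cells, and from T cells. miR-24 is known in mammals for restraining cell division, and miR-210 is the miRNA most regularly induced by low oxygen in mammalian cells, where it lowers mitochondrial respiration.

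In the RefSeq gene table (assembly GRCz12tu, used for names and neighbours only) the zebrafish has 16 genes of these names. They form 5 clusters, each of 1 miR-23, 1 miR-27 and 1 miR-24 gene, and mir210 stands alone. The miR-27 gene differs from cluster to cluster. mir27a lies beside mir23a-3 and mir24b, mir27c beside mir23a-2 and mir24-2, dre-mir-27e beside mir23a-1 and dre-mir-24-4, mir27b beside mir23b-2 and mir24-3, and mir27d beside dre-mir-23b and mir24-1. The mir27b cluster overlaps the protein-coding gene aopep and the mir27d cluster overlaps apba1b. Reads of miR-23a-3p, miR-23b and miR-24 can therefore come from several clusters, whereas the miR-27 rows carry the name of a single cluster each. Paralogues have near-identical sequences, so how reads were divided between their rows is uncertain.

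Library totals ran from 199431 to 7584818 counts, with medians of 352754, 697494 and 1066364 at 24, 28 and 32 °C, so depth was not even across temperatures. Replicate 7 of the 32 °C controls and replicate 5 of the 32 °C LPS fish were the deepest libraries. Levels are counts scaled to a common library size (CPM) after adjustment by the trimmed mean of M-values (TMM). Differences are fitted log2 differences from edgeR's quasi-likelihood F test with Benjamini-Hochberg adjustment over the 364 rows, called at an adjusted p under 0.05. That test gives no SE, so the SE printed with it is the absolute difference divided by the square root of F. Intervals of these differences use that SE with 24 degrees of freedom and are approximate. Members held 0.128 to 0.811% of each library. Between 3 and 18 of the 18 were counted in a library, with medians of 7.5, 10.0 and 11.5 rows at 24, 28 and 32 °C. The leukocyte rows (miR-142, miR-223, miR-150), set as spleen markers, held 0.0938 to 0.725% of counts. Of these, miR-142a-3p was at 0 in 14 of 30 libraries, and miR-142a-5p and miR-142b-5p in 22 each. The red cell rows (miR-144-3p, miR-144-5p and miR-451) held 0.112 to 4.71%. miR-486 was also listed as a red cell marker but had no zebrafish-named row, and miR-144-3p was at 0 in 25 of 30 libraries. Of the endothelial miR-126 rows 4 of 4 were counted at each temperature, but miR-126a-5p was at 0 in 15 and miR-126b-5p in 17 of 30 libraries. Together the miR-126 rows held 0.0259 to 0.432% at 24 °C, 0.0470 to 0.500% at 28 °C and 0.153 to 2.04% at 32 °C. The smooth muscle rows of miR-143 and miR-145, 3 of 3 counted, held 0.200 to 1.44%, 0.845 to 2.63% and 0.766 to 14.8%. Both vascular shares were highest in replicate 7 of the 32 °C controls, the deepest library. The liver row, miR-122, held 0.0126 to 0.307%, 0.00380 to 0.743% and 0.0283 to 3.86% at 24, 28 and 32 °C, with medians of 0.122, 0.0960 and 0.299%. Of 10 striated muscle rows only miR-1 and miR-206-3p were counted, the miR-133 rows being at 0 in all 30 libraries, with medians of 0.000221, 0.000277 and 0.0303% and highest shares of 0.274, 0.438 and 0.0989%. The part of these cell types in the results below was not tested, and in whole spleen fewer cells of a type and less RNA per cell cannot be told apart.

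**Figure D1:**
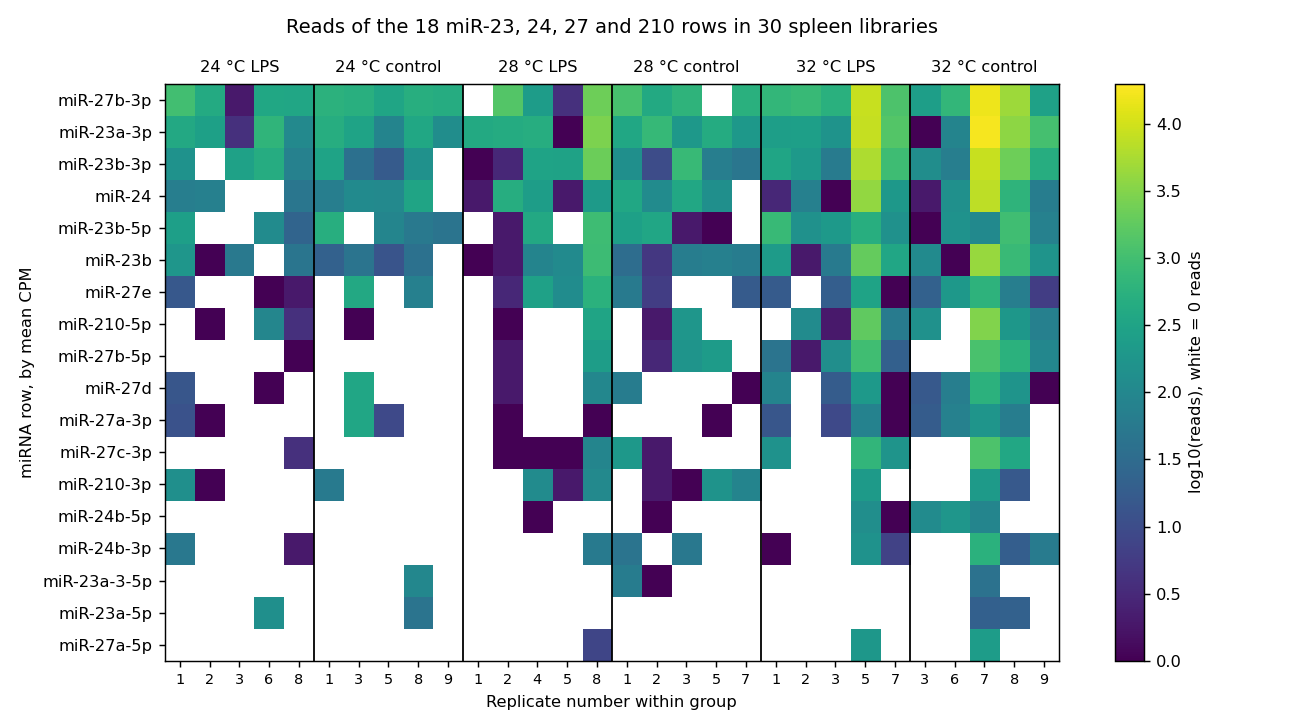
Reads of the 18 member rows (down the page, by mean CPM) in the 30 libraries (across, by group and replicate number), on a log10 colour scale with white for 0 reads. The first rows were counted in most libraries, while miR-27b-5p and miR-27c-3p each had a read in 1 of 10 libraries at 24 °C.

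miR-27b-3p averaged 940 ± 715 CPM and miR-23a-3p 747 ± 767 CPM over all libraries (SD, n = 30). miR-23b-3p followed with 421 ± 471 CPM, and miR-24 with 259 ± 358 CPM. miR-23b-5p averaged 177 ± 201 CPM and the row named miR-23b, with no arm, 159 ± 196 CPM. The other 12 rows had means of 3.59 to 90.3 CPM. The mean difference between neighbours in this order was smaller than its SD over libraries: miR-27b-3p exceeded miR-23a-3p in 20 of 30 libraries, with a mean log2 difference of 0.19 ± 3.36 (SD), miR-23a-3p exceeded miR-23b-3p in 25 of 30 (1.30 ± 3.92), and miR-24 exceeded miR-23b-5p in 15 of 30. miR-27b-3p was the first of the 5 miR-27 rows used to compare paralogues (27a-3p, 27b-3p, 27c-3p, 27d and 27e) in 26 of the 29 libraries with any of them, and held a median of 92.2% of their reads.

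Between 32 and 24 °C, 3 of the 14 tested members rose and none fell, against 16.5% of all rows called (14% higher and 2.47% lower). These were miR-27b-5p, the partner strand of the main miR-27, miR-27c-3p, of another cluster, and miR-210-5p. Their fitted log2 differences were 8.77 ± 2.13 (adjusted p = 0.00625), 7.42 ± 2.17 (adjusted p = 0.0165) and 5.91 ± 1.91 (adjusted p = 0.0266) by edgeR. miR-27b-5p and miR-27c-3p were at 0 in all 24 °C controls, so the sizes of their differences depend on the small count added by the fit. The 3 rows had 10 or more counts in 0, 0 and 1 of 10 libraries at 24 °C, and in 7, 5 and 7 at 32 °C. They thus passed the low-count filter mainly through the 32 °C libraries, whose median total was the highest. Over the 14, 12 estimates were above 0 and the median was 1.21, against 0.81 over all tested rows, of which 229 of 364 were above 0. Another scaling moved that all-row median to between 0.18 (totals alone) and 1.00 (TMM with totals before the low-count filter), and the 3 calls were the same under each scaling tried. Thinning every library at random to 199431 counts kept these 3 calls. With log2 library total as a covariate 0 of 14 were called, and 1 of 364 rows. Without the 4 deepest libraries only miR-27b-5p was called, against 4.19% of rows, and without replicate 7 of the 32 °C controls and replicate 5 of the 32 °C LPS fish together likewise 1 member, against 9.07% of rows.

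**Figure D2:**
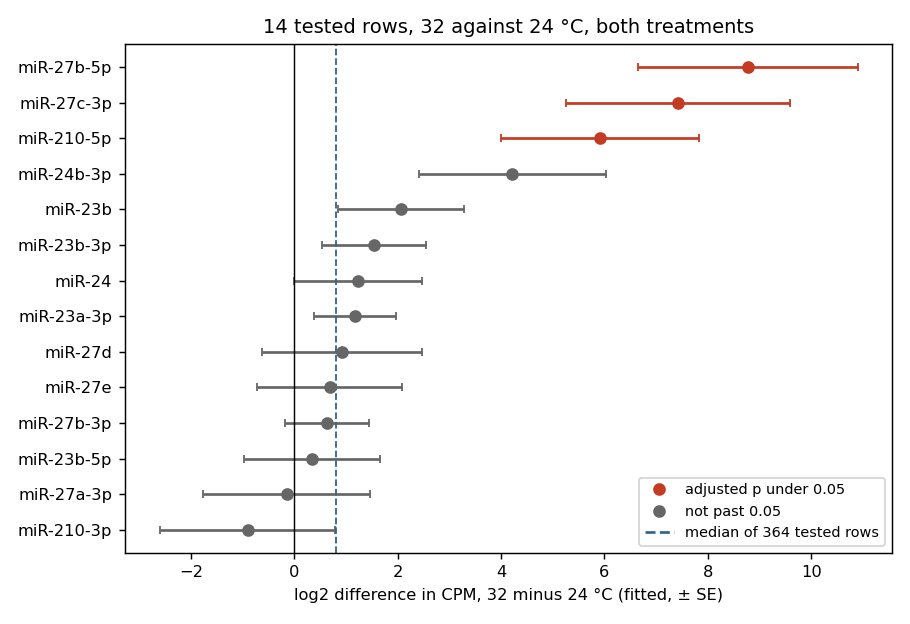
Fitted log2 differences in CPM, 32 minus 24 °C over both treatments, of the 14 tested members; points are estimates, bars ± 1 SE, and the dashed line is the median of the 364 tested rows at 0.81. The 3 red points, miR-27b-5p, miR-27c-3p and miR-210-5p, passed an adjusted p of 0.05.

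miR-27b-5p is the strand opposite the abundant miR-27b-3p. In 24 °C fish it stood at 0, 0, 0, 0 and 2.57 CPM after LPS and at 0, 0, 0, 0 and 0 CPM in controls. In 28 °C fish it stood at 0, 2.26, 0, 0 and 65.1 CPM after LPS and 0, 3.91, 237, 633 and 0 CPM in controls. In 32 °C fish it stood at 37.1, 2.73, 199, 295 and 16.5 CPM after LPS and 0, 0, 234, 169.6 and 149 CPM in controls. It was thus counted in 1, 5 and 8 of 10 libraries at 24, 28 and 32 °C, with 1, 657 and 2974 reads, and the 2 control libraries of 32 °C without a read overlapped the 24 °C range. Over summed reads and totals the 32 °C level was 577-fold that of 24 °C, with a 95% interval of 103.5 to 22807 that covers counting error only, since the 24 °C side was a single read. With every library thinned to 199431 counts it was seen in 7 of 10 libraries at 32 °C and 0 of 10 at 24 °C. The call remained in each of the 30 fits that left out 1 library (adjusted p 0.00438 to 0.0186) and was lost with the library total as a covariate (6.92 ± 2.13, adjusted p = 0.0861).

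The abundant arm of the same hairpin did not pass the test. miR-27b-3p stood at 999.8, 969.9, 5.17, 327 and 909 CPM after LPS and 859, 1354, 977, 1102 and 1304 CPM in controls of 24 °C. At 28 °C the values were 0, 1569, 264, 8.63 and 588 CPM after LPS and 1686, 537, 893, 0 and 709.8 CPM in controls. At 32 °C they were 585, 1074, 802, 2774 and 978 CPM after LPS and 1111, 849, 3132, 1402 and 432 CPM in controls. The temperatures overlapped over most of their range, and 4 libraries held 0 to 8.63 CPM where the other libraries of these groups held 264 CPM or more. Its log2 difference of 32 minus 24 °C was 0.63 ± 0.82 (adjusted p = 0.634, edgeR), and its estimate fell below 0 with the library total as a covariate (-0.27) and with zebrafish-named rows alone (-0.07).

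The share of miR-27b reads on the 5p arm differed between temperatures, in a measure that uses the same reads as the rows above. In libraries with at least 20 reads of the hairpin it averaged 8.07 ± 8.79% at 32 °C (SD, n = 10) and 0.0314 ± 0.0942% at 24 °C (SD, n = 9). The difference of 8.04 percentage points had p = 0.00217 in a two-sided exact permutation test, and an adjusted p of 0.00866 over the 4 hairpins tested. At 32 °C the shares were 5.97, 0.254, 19.9, 9.63 and 1.66% after LPS and 0, 0, 6.94, 10.8 and 25.6% in controls, while 1 of 4531 reads at 24 °C was of the 5p arm. Thus 8 of 10 libraries at 32 °C had a 5p read and 1 of 9 at 24 °C. At 28 °C the share averaged 16.5 ± 34.6% (SD, n = 8), above the mean of 32 °C, and ran from 0 to 100%. Medians were 0, 0.433 and 6.46% at 24, 28 and 32 °C. In replicate 5 of the 28 °C controls all 233 reads were 5p (exact 95% interval 98.4 to 100%). Thinned to 20 reads per library the difference was 7.50 points with an adjusted p of 0.0619, and without the 4 deepest libraries 7.59 points with an adjusted p of 0.0699, both by permutation.

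**Figure D3:**
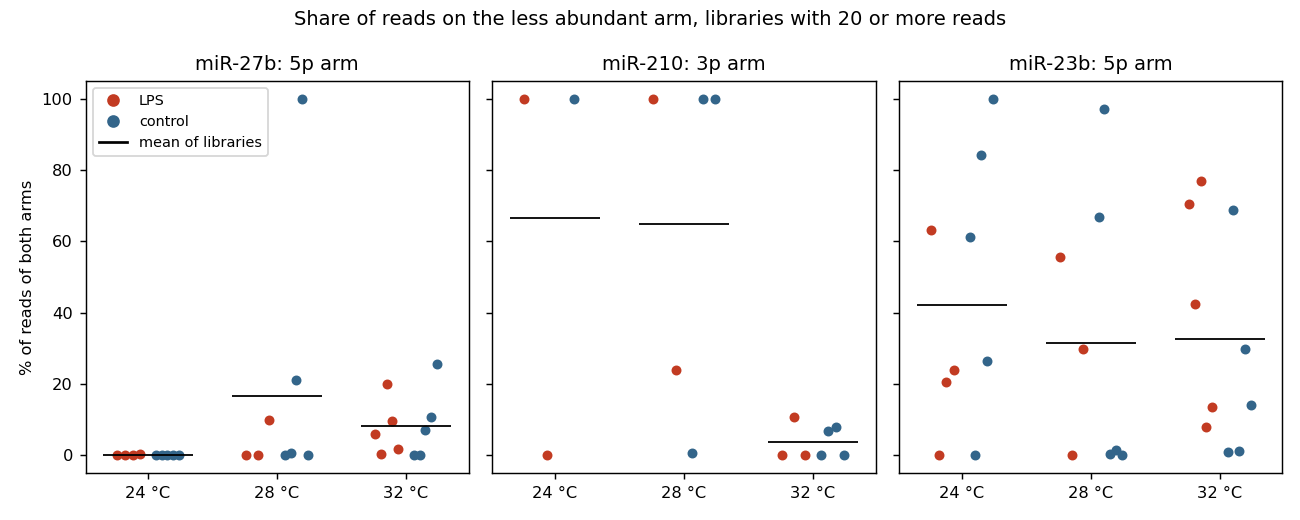
Percent of a hairpin's reads on the arm with fewer reads summed over all libraries, for miR-27b (5p), miR-210 (3p) and miR-23b (5p). Each library with at least 20 reads is shown, by temperature. Points are libraries, lines means. The miR-27b shares at 24 °C lie between 0 and 0.282% and those at 32 °C between 0 and 25.6%, while the miR-23b shares run from 0 to 100% at 24 °C and from 0.763 to 76.9% at 32 °C.

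miR-27c-3p, the product of the mir27c cluster, shares its family's target preference. In 24 °C fish it had 0, 0, 0, 0 and 10.3 CPM after LPS and 0, 0, 0, 0 and 0 CPM in controls. In 28 °C fish it had 0, 1.13, 1.1, 2.16 and 23.8 CPM after LPS and 293, 2.61, 0, 0 and 0 CPM in controls. In 32 °C fish it had 129, 0, 0, 215 and 134 CPM after LPS and 0, 0, 252, 116 and 0 CPM in controls. Counted libraries numbered 1, 6 and 5 of 10 at 24, 28 and 32 °C (4, 292 and 2655 reads), so at 32 °C the level in this row was either above 100 CPM or at 0. The 5 counted libraries of 32 °C were the deepest there, with totals of 1116327 or more, against 1016401 or fewer in those at 0. With every library thinned to 199431 counts the row was seen in 1, 5 and 5 of 10 libraries at 24, 28 and 32 °C. Why the row split this way at 32 °C was not tested. Every counted 32 °C library lay above the highest 24 °C library, and the other 5 were at 0 with most 24 °C libraries. The summed level was 129-fold that of 24 °C (95% counting interval 50.3 to 473). No single library ended the call (adjusted p 0.0109 to 0.0441), but it was lost with limma voom (2.36 ± 1.198, adjusted p = 0.143), with the total as a covariate (1.74 ± 2.33, adjusted p = 0.804) and without the 2 deepest 32 °C libraries named above (6.31 ± 2.12, adjusted p = 0.0589). Without the 4 deepest libraries the fit gave this row no usable estimate, with an SE of 3714 on the log2 scale. A row named after carp miR-27c-3p held a further 208 reads in 16 libraries, and one after carp miR-27c-5p 690 reads in 7. A count of 0 in the zebrafish row thus need not mean that a library had no reads of this miRNA.

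The remaining miR-27 paralogues did not pass between 32 and 24 °C. miR-27a-3p had 11.8, 2.28, 0, 0 and 0 CPM after LPS and 0, 919, 26.3, 0 and 0 CPM in controls of 24 °C. Its 28 °C values were 0, 1.13, 0, 0 and 0.258 CPM after LPS and 0, 0, 0, 2.72 and 0 CPM in controls. Its 32 °C values were 11.6, 0, 13.2, 25.1 and 0.784 CPM after LPS and 78.4, 94.1, 34.7, 20.1 and 0 CPM in controls. It was nearly absent at 28 °C, with 371, 3 and 441 reads at 24, 28 and 32 °C. The 32 minus 28 °C difference was 5.46 ± 1.72 (adjusted p = 0.0655) and the 24 minus 28 °C difference 5.61 ± 1.74 (adjusted p = 0.102), while 32 minus 24 °C was -0.15 ± 1.62 (adjusted p = 0.954). Of its 24 °C reads, 349 were in replicate 3 of the controls, which also had 354 reads of miR-27d and 398 of miR-27e, rows of 2 other clusters. That library held 74.0% of the summed CPM of miR-27a-3p, 59.9% of that of miR-27d and 38.7% of that of miR-27e. Without it miR-27a-3p differed by 2.27 between 32 and 24 °C (adjusted p = 0.266) and miR-27d by 6.27 (adjusted p = 0.0227).

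miR-27d was counted in 3, 4 and 9 of 10 libraries at 24, 28 and 32 °C, with medians of 0, 0 and 59.1 CPM and highest values of 932, 96.1 and 115 CPM. miR-27e was counted in 5, 7 and 9 libraries, with medians of 0.455, 15.2 and 24.5 CPM and highest values of 1048, 319 and 233 CPM. Both were thus seen most often at 32 °C and overlapped between all temperatures. Their 32 minus 24 °C differences were 0.92 ± 1.55 and 0.68 ± 1.41 (adjusted p = 0.736 and 0.780). miR-27a-5p was counted in 3 libraries, with 186 and 237 reads in the 2 deepest 32 °C libraries and 8 in replicate 8 of the 28 °C LPS fish, and was not tested.

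Rows of miR-23, which in mice act with miR-27 in vessel growth, did not pass at any temperature contrast by edgeR. miR-23a-3p, counted in all 30 libraries, stood at 386, 631, 10.3, 585 and 273 CPM after LPS and 723, 811, 257, 818 and 362 CPM in controls of 24 °C. In 28 °C fish it had 1685, 501, 517, 2.16 and 737 CPM after LPS and 538, 986, 283, 1222 and 265 CPM in controls. In 32 °C fish it had 213, 364, 239.7, 2605 and 1117 CPM after LPS and 4.36, 105, 3447, 1135 and 1589.9 CPM in controls. Its highest values were in the deepest 32 °C libraries and its lowest in a library of each temperature, so that all temperatures overlapped (32 minus 24 °C 1.17 ± 0.80, adjusted p = 0.311). That estimate was 0.45 without replicate 7 of the 32 °C controls, 0.63 when replicate 5 of the LPS fish of 32 °C was left out and 0.018 without the 4 deepest libraries. The zebrafish-named 5p rows of miR-23a were rare: miR-23a-5p had 227 reads in 4 libraries and miR-23a-3-5p 201 reads in 4 control libraries. A row named after salmon miR-23a-4-5p held a further 504 reads in 7 libraries.

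miR-23b-3p had 156, 0, 747, 415 and 198 CPM after LPS and 471, 102.7, 49.7, 335 and 0 CPM in controls of 24 °C. Its 28 °C values were 4.08, 3.39, 346, 638 and 560.4 CPM after LPS and 212, 13.0, 1113, 187 and 63.9 CPM in controls. Its 32 °C values were 274, 277, 91.2, 1851 and 735 CPM after LPS and 566, 83.4, 1733, 678 and 724 CPM in controls. Medians were 177, 200 and 622 CPM at 24, 28 and 32 °C, with overlapping ranges and a 32 minus 24 °C difference of 1.54 ± 1.00 (adjusted p = 0.291, edgeR). With limma voom this difference passed, at 2.87 ± 1.10 (adjusted p = 0.0491).

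The row named miR-23b, which gives no arm, had 178, 2.28, 139.6, 0 and 121 CPM after LPS and 32.9, 119, 38.0, 88.7 and 0 CPM in controls of 24 °C. At 28 °C it had 4.08, 2.26, 96.9, 248 and 231 CPM after LPS and 51.1, 6.52, 93.7, 204 and 86.6 CPM in controls. At 32 °C it had 192, 2.73, 86.8, 604 and 274 CPM after LPS and 497, 1.19, 857, 249.8 and 257 CPM in controls. It went with miR-23b-3p over the 30 libraries (Spearman's rho 0.73, the highest of the pairs of members, and Pearson's r 0.72 of log2 CPM), points that share library and depth. The 32 minus 24 °C difference was 2.07 ± 1.21 (adjusted p = 0.233), with medians of 63.4, 90.1 and 253 CPM along the temperatures and overlapping ranges.

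miR-23b-5p is the partner strand of miR-23b-3p. It had 268, 0, 0, 106.5 and 61.8 CPM after LPS and 745, 0, 266, 119.7 and 128 CPM in controls of 24 °C. At 28 °C the values were 0, 2.26, 432, 0 and 237 CPM after LPS and 425, 452, 2.84, 2.72 and 0 CPM in controls. At 32 °C they were 657, 205, 303, 157 and 116 CPM after LPS and 4.36, 185, 22.1, 289 and 119 CPM in controls. It was counted in 7, 7 and 10 libraries, its medians were 113, 2.78 and 171 CPM, and 32 minus 24 °C was 0.35 ± 1.32 (adjusted p = 0.863). Its share of miR-23b-3p and miR-23b-5p reads averaged 32.6 ± 30.1% at 32 °C (SD, n = 10) and 42.1 ± 36.3% at 24 °C (SD, n = 9; exact permutation p = 0.535, adjusted p = 0.535). These shares ran from 0 to 100% at 24 °C, 0 to 97.2% at 28 °C and 0.763 to 76.9% at 32 °C, and in 10 of 27 libraries the 5p arm was the more abundant. A row named after human miR-23b-5p held a further 8709 reads in 26 libraries and one after salmon miR-23b-3p 11555 reads in 24, so the reads of these arms were divided over rows of several species.

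The row miR-24 carries the name of the miR-24 genes of all clusters but that of mir27a, whose gene is mir24b. It had 67.0, 173, 0, 0 and 126.2 CPM after LPS and 102, 300.2, 304, 725 and 0 CPM in controls of 24 °C. In 28 °C fish it had 8.16, 544, 269.7, 4.31 and 56.6 CPM after LPS and 553, 158, 548, 377 and 0 CPM in controls. In 32 °C fish it had 2.48, 102.5, 1.47, 1245 and 153 CPM after LPS and 8.71, 173, 1466, 191 and 101 CPM in controls. Medians were 114, 214 and 128 CPM, with values under 10 CPM in 3 libraries of each temperature. The 32 minus 24 °C difference was 1.24 ± 1.24 (adjusted p = 0.531), and without the 4 deepest libraries it was -0.90 (adjusted p = 0.832), without replicate 7 of the 32 °C controls -0.22 and -0.11 when replicate 5 of the LPS fish of 32 °C was left out. miR-24b-3p, of the mir27a cluster, was counted in 2, 3 and 6 of 10 libraries with 55, 154 and 810 reads, and its difference of 4.22 ± 1.81 did not pass (adjusted p = 0.107). miR-24b-5p was too rare to be tested, with 0 reads at 24 °C, 2 at 28 °C and 523 in 5 libraries at 32 °C, where the summed level was at least 33.8-fold higher than 3 counts over the summed 24 °C totals.

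miR-210-5p was the third member that rose between 32 and 24 °C. In 24 °C fish it stood at 0, 2.28, 0, 85.6 and 10.3 CPM after LPS and 0, 2.63, 0, 0 and 0 CPM in controls. In 28 °C fish the values were 0, 1.13, 0, 0 and 85.3 CPM after LPS and 0, 2.61, 254, 0 and 0 CPM in controls. In 32 °C fish they were 0, 159.9, 2.94, 564 and 48.6 CPM after LPS and 658, 0, 607, 57.0 and 114 CPM in controls. Counted libraries numbered 4, 4 and 8 of 10, with 100, 512 and 5442 reads, and at 24 °C 94 of the 100 reads were in replicate 6 of the LPS fish. Of the 32 °C libraries 5 lay above the highest 24 °C value of 85.6 CPM and 5 lay within the 24 °C range. The summed level was 10.6-fold that of 24 °C (95% counting interval 8.67 to 13.0). The call was lost without replicate 9 of the 24 °C controls (5.63 ± 2.02, adjusted p = 0.0502), without replicate 7 of the 32 °C controls (5.39 ± 1.91, adjusted p = 0.0600) or when replicate 5 of the LPS fish of 32 °C was left out (5.19 ± 1.87, adjusted p = 0.0647), and also without the 4 deepest libraries (5.06 ± 1.87, adjusted p = 0.0917).

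miR-210-3p, the other arm of the hairpin, was seen in 3, 7 and 3 of 10 libraries at 24, 28 and 32 °C, with 196, 478 and 452 reads, and highest values of 136, 437 and 68.0 CPM. Summed over all libraries it had fewer reads than the 5p arm (1126 against 6054), but at 24 °C it had more (196 against 100). The 2 deepest 32 °C libraries held 3048 and 1799 of the 5p reads. The mammalian background above was given without naming an arm, and a link between the 5p row and low oxygen was not tested. The rise called above was that of the 5p row alone and not of miR-210 as a whole, since for miR-210-3p no rise was called. The 32 minus 24 °C difference of miR-210-3p was -0.90 ± 1.70 (adjusted p = 0.770). The estimate was 2.26 without replicate 1 of the 24 °C controls and 1.33 when replicate 1 of the LPS fish of 24 °C was left out. Of the 15 libraries with 20 or more reads of the hairpin, 5 held only 3p reads and 5 only 5p reads. All 5 libraries of the first kind were of 24 or 28 °C, with 57 to 161 reads each. The 3p share averaged 3.62 ± 4.67% at 32 °C (SD, n = 7) and 66.7 ± 57.7% at 24 °C (SD, n = 3), a difference of -63.0 percentage points that did not pass (exact permutation p = 0.133, adjusted p = 0.267). Of the other hairpins, miR-23a had a 5p share of 0.105 ± 0.216% at 32 °C (SD, n = 9) and 5.05 ± 10.3% at 24 °C (SD, n = 9; adjusted p = 0.535 by exact permutation). This share summed miR-23a-5p and miR-23a-3-5p and left out rows named after other species. The hairpins miR-24b and miR-27a had 20 or more reads in 1 library of 24 °C each, too few to test.

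**Figure D4:**
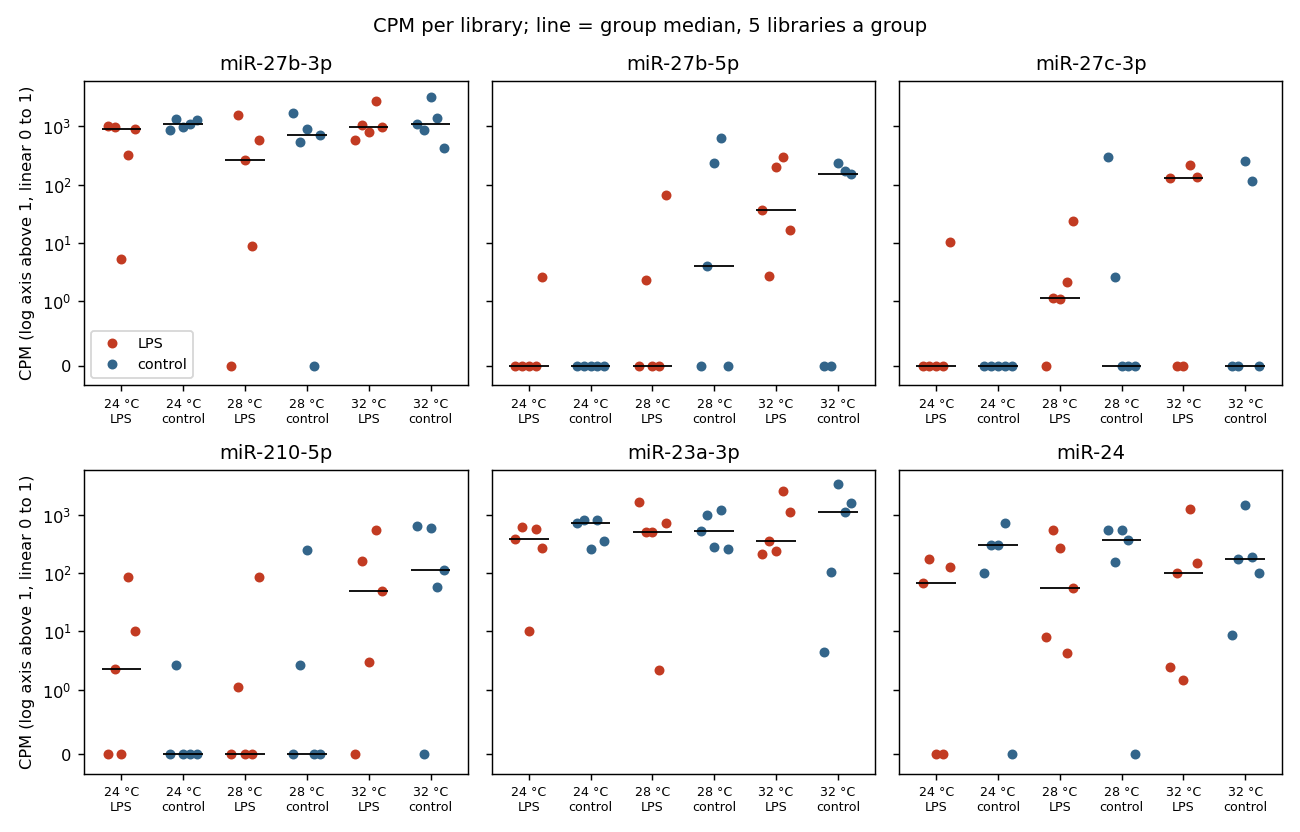
CPM of 6 members in each of the 30 libraries, by temperature and treatment, on an axis that is linear from 0 to 1 and logarithmic above; lines are group medians. miR-27b-5p and miR-27c-3p sit at 0 in 9 of 10 libraries of 24 °C, while miR-27b-3p, miR-23a-3p and miR-24 overlap between temperatures.

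A joint test of any difference between the 3 temperatures called 4 of the 14 members, against 18.4% of all rows. They were miR-27b-5p (adjusted p = 0.0165), miR-27c-3p (adjusted p = 0.0320), miR-210-5p (adjusted p = 0.0424) and miR-27a-3p (adjusted p = 0.0449), by edgeR. miR-27b-5p kept its call without any 1 of the 30 libraries, whereas miR-27c-3p lost it in 6 of these fits, miR-210-5p in 16 and miR-27a-3p in 24, with adjusted p values up to 0.0869, 0.118 and 0.115. Between 32 and 28 °C 0 of 14 members were called against 2.75% of rows (2.2% higher and 0.549% lower), and 1 member had an unadjusted p under 0.05, against 23.9% of rows. DESeq2 called 1 and limma voom 2 members in that comparison. Between 24 and 28 °C edgeR called 0 members and 0% of rows, with 3 members under an unadjusted p of 0.05 against 15.1% of rows, while DESeq2 called 3 and limma voom 0. The smallest adjusted p there was that of miR-27b-5p, at -7.60 ± 2.04 (adjusted p = 0.0646), with 1 read at 24 °C and 657 at 28 °C. The size of that difference depends on the small count added by the fit.

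Within a treatment the 32 against 24 °C comparison called 0 of 14 members in LPS fish (0.549% of rows) and 0 of 14 in controls (0.824% of rows), with 5 libraries a group. In LPS fish 1 member had an unadjusted p under 0.05 (18.4% of rows), and in controls 4 had (22.3% of rows). miR-27b-5p differed by 7.64 ± 2.84 in LPS fish (adjusted p = 0.128) and by 9.90 ± 3.17 in controls (adjusted p = 0.0963), where all 24 °C libraries were at 0, so that the second estimate depends on the small count added by the fit. For miR-210-5p the values were 2.96 ± 2.32 (adjusted p = 0.547) and 8.86 ± 3.09 (adjusted p = 0.0963), and for miR-27c-3p 5.53 ± 2.78 (adjusted p = 0.277) and 9.31 ± 3.34 (adjusted p = 0.109). The control estimate of miR-27c-3p has the same limit, since its 24 °C controls were also all at 0. All estimates were above 0 in both treatments, and the test of a difference between temperatures in the LPS effect gave adjusted p values of 0.785, 0.658 and 0.661 for these 3 rows. DESeq2 called 1 member in LPS fish and 3 in controls, and limma voom 0 and 2.

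No member passed the test between LPS and control fish. Averaged over temperatures 0 of 14 were called, against 0.549% of all rows, and DESeq2 and limma voom also called 0. An unadjusted p under 0.05 was found for 2 members, against 10.4% of rows. Of the members 5 had an estimate above 0, with a median of -0.29 against 0.10 over all rows. At 24, 28 and 32 °C taken singly 0 of 14 were called each, against 0% of rows each, with 4, 0 and 0 members under an unadjusted p of 0.05 (12.1, 13.2 and 1.92% of rows), and DESeq2 called 1 member at 24 °C and 0 at 28 and 32 °C. The 4 at 24 °C were miR-24b-3p (6.66 ± 2.92), miR-27a-3p (-5.96 ± 2.46), miR-27d (-5.87 ± 2.72) and miR-27e (-5.79 ± 2.47). These miR-27 rows all had their highest value in replicate 3 of the 24 °C controls, and miR-24b-3p was at 0 in every 24 °C control. The widest averaged differences with an unadjusted p under 0.05 were those of miR-27a-3p (-2.82 ± 1.35, adjusted p = 0.470) and miR-27d (-2.84 ± 1.36, adjusted p = 0.470). Both moved when replicate 3 of the 24 °C controls was left out, to -1.22 (adjusted p = 0.859) and 0.71 (adjusted p = 0.923). For the abundant rows the 95% intervals of LPS minus control were -1.91 to 0.84 for miR-27b-3p and -1.68 to 0.97 for miR-23a-3p on the log2 scale, so differences within these bounds are not excluded.

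No arm share passed the test between LPS and control libraries. The miR-27b 5p share averaged 3.98 ± 6.29% after LPS (SD, n = 12) and 11.01 ± 25.98% in controls (SD, n = 15; permutation p = 0.461, adjusted p = 0.957 over 5 hairpins). The difference of -7.03 percentage points was -0.669 without replicate 5 of the 28 °C controls, the library with 5p reads alone. For miR-210 the 3p share was 33.5 ± 46.2% after LPS (SD, n = 7) and 39.4 ± 50.3% in controls (SD, n = 8; exact permutation p = 0.957). The interaction test called 0 of 14 members and 0% of rows, with a smallest adjusted p of 0.407 among members, shared by miR-24b-3p and miR-27e, and 2 members under an unadjusted p of 0.05 against 12.1% of rows, and DESeq2 and limma voom also called 0.

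Other zebrafish rows of the same biology were set beside the members from lists drawn up with earlier results of these data known. Of 10 tested rows of miRNAs named as hypoxia-regulated in mammalian cells 3 rose between 32 and 24 °C and none fell, against 14% of all rows higher and 2.47% lower. These were miR-26a-5p by 2.38 ± 0.49, miR-26b by 2.62 ± 0.56 and miR-181a-3-3p by 6.92 ± 2.03 (adjusted p = 0.00123, 0.00165 and 0.0191, edgeR). For miR-181a-3-3p the fit gave no usable SE between 24 and 28 °C (8037 on the log2 scale). Its LPS minus control estimate at 24 °C was 0 with no SE, which is what a row without reads in both groups gives. The size of its rise thus depends on the small count added by the fit. The other rows of this list, of miR-103, miR-107 and miR-181, did not pass (adjusted p 0.421 to 0.869, edgeR). Among them miR-181a-5p (-0.35) and miR-181a-5-3p (-0.38) had estimates below 0. Of 12 tested endothelial and vascular rows 4 rose and none fell, against the same shares of all rows. miR-126b-3p, of the endothelial miR-126 rows, rose by 2.64 ± 0.55 and miR-143, of smooth muscle, by 2.86 ± 0.47 (adjusted p = 0.00123 and 0.000159, edgeR). miR-145-3p and miR-221-5p also rose, by 3.15 ± 0.96 and 8.23 ± 2.12 (adjusted p = 0.0194 and 0.0102). A difference as large as that of miR-221-5p may likewise depend on the small count added by the fit, which was not checked. The rows miR-126a-3p, miR-126a-5p and miR-126b-5p did not pass (adjusted p = 0.191, 0.665 and 0.596). Nor did miR-145-5p, at -0.35 ± 1.20 (adjusted p = 0.858), or miR-221-3p, miR-222a-3p, miR-222a-5p and miR-222b (adjusted p = 0.664, 0.0856, 0.444 and 0.152, edgeR). The medians of these lists were 1.02 and 1.62, against 1.21 for the members and 0.81 for all rows.

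The zebrafish rows most like each abundant member were sought among 44 rows outside the set that were counted in all 30 libraries, by Spearman's rho of log2 CPM. miR-23b-3p was most like miR-16b (rho 0.68) and the row miR-23b most like miR-462 (rho 0.72). miR-23a-3p was most like miR-128-3p (rho 0.61) and miR-24 most like miR-30d (rho 0.50). miR-27b-3p and miR-23b-5p had the weakest best matches, miR-122 (rho 0.42) and miR-181a-5p (rho 0.40). These values describe points that share library and depth.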

How the data were processed

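Per the labels' protocols, each of the 30 spleen libraries took 50 ng of total RNA into the NEXTflex small RNA kit and was amplified for 22 cycles. The authors deposited raw counts, an integer number of reads for every miRNA row in each library. Tools credited in the submitters' processing notes are cutadapt 1.12, FastQC 0.11.5, DESeq2 1.11.1 and bcl2fastq, with no role stated. How reads were aligned and counted, on which build and miRNA reference, is not given in the sources used here, and no removal of PCR copies is recorded, so intervals and floors cover counting error only. A count of 0 allows up to 3 counts.

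Rows were filtered with edgeR's filterByExpr on the 6 groups and libraries scaled with TMM. A group-means model with 24 residual degrees of freedom was fitted by edgeR 4.0.16 with its robust quasi-likelihood method in R 4.3.3, and 11 contrasts were tested over 364 rows with Benjamini-Hochberg adjustment. Arm shares used libraries with at least 20 reads over both arms, for hairpins with at least 100 reads, and exact permutation tests or 100000 resamples (scipy 1.17.1). Alternatives were DESeq2 1.42.0, limma 3.58.1 voom with weights, other scalings, filters and covariates, thinning, and leaving out libraries. The fit was also run on simulated counts, whose outcome is not given here, and no result above rests on it. Over the 60 pairs of libraries within a group chi-squared per degree of freedom was at least 143, so no library was counted as a copy of another in its group. Pairs across groups were not checked. Members and lists were chosen with earlier results of these data known. Named were all tested members counted in 15 or more libraries or called, with values by library for those of a mean of 100 CPM or more or a call. For likeness, the nearest of up to 3 rows is given. Rows that carry no arm were kept as they stand.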

Additional observations from a re-analysis of the deposited data

Results flagged for a closer look

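Within groups of 5 libraries a value was flagged where its gap to the nearest library, as a share of the group's range on log2(CPM + 1), exceeded Dixon's 95% critical value. Of 60 groups, from 10 members, 17 were flagged; chance flags about 1 in 20 groups of normally distributed values. That rate does not hold for rows with many zeros, and in 4 of the flagged groups every other library was at 0, which fixes the ratio at 1. No cause was tested.

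Of the flags, 9 were low values of abundant rows. miR-27b-3p was at 5.17 CPM in replicate 3 of the 24 °C LPS fish, where the others held 327 to 999.8 CPM, and at 0 in replicate 5 of the 28 °C controls, where the others held 537 to 1686 CPM. miR-23a-3p was at 10.3 CPM in replicate 3 of the 24 °C LPS fish, the same library that was low in miR-27b-3p, and at 2.16 CPM in replicate 5 of the 28 °C LPS fish. miR-23b-3p was at 0 in replicate 2 of the 24 °C LPS fish, miR-24 at 0 in replicate 7 of the 28 °C controls and miR-23b-5p at 0 in replicate 3 of the 24 °C controls. The row miR-23b was at 0 in replicate 9 of the 24 °C controls and at 1.19 CPM in replicate 6 of the 32 °C controls, where the others held 249.8 to 857 CPM.

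The other 8 were high values among libraries at or near 0. miR-210-5p was at 2.63 CPM in replicate 3 of the 24 °C controls, at 85.3 CPM in replicate 8 of the 28 °C LPS fish and at 254 CPM in replicate 3 of the 28 °C controls. miR-27b-5p was at 2.57 CPM in replicate 8 of the 24 °C LPS fish and at 65.1 CPM in replicate 8 of the 28 °C LPS fish. miR-27c-3p was at 10.3 CPM in replicate 8 of the 24 °C LPS fish and at 293 CPM in replicate 1 of the 28 °C controls. miR-27a-3p was at 2.72 CPM in replicate 5 of the 28 °C controls. The smallest of these rest on 1 read.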

How the results depend on the processing

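Of 14 members, the 3 called between 32 and 24 °C remained called with every library thinned to 199431 counts. They became 0 with the log2 total as a covariate. The count was 1 without the 4 deepest libraries, without the 2 deepest 32 °C libraries (chosen after seeing the data), or with the replicate block. Leaving out single libraries gave 2 to 4. The joint count of 4 became 0 with the covariate, the block or without those 2 libraries. It was 1 with DESeq2, RLE scaling, totals alone, zebrafish rows alone or without the 4 deepest. With limma voom or other species' rows merged (added after seeing the data) it was 2, and single libraries gave 1 to 5. The strict filter, at least 10 counts in 15 libraries, left 7 members to test. It removed all 4 members called in either comparison, which reached 10 counts in 7 to 10 libraries. Its counts of 0 were therefore fixed in advance and do not retest those calls. The 32 minus 28 °C count of 0 became 1 with DESeq2 or the covariate and 2 with voom (single libraries 0 to 1), and the 24 minus 28 °C count became 3 with DESeq2 and 1 without a filter or with TMM on unfiltered totals (single libraries 0 to 1). DESeq2 gave 1 in LPS fish, 3 in controls and 1 for LPS at 24 °C, and voom 2 in controls (single libraries 0 to 1 in controls). Other counts for LPS and the interaction remained 0. Same-numbered LPS and control libraries had correlations over 0.1 in 2 of 8 pairs, and the replicate numbers were not taken as pairs. These 2 were the only such pairs of 32 °C, replicates 3 and 7, at 0.33 and 0.23, so pairing at 32 °C is not excluded.

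Estimates of 32 minus 24 °C that changed sign were all of uncalled members. With the covariate these were miR-23b-5p (-0.98), miR-24 (-1.86), miR-27b-3p (-0.27), miR-27d (-0.071) and miR-27e (-0.10). Zebrafish rows alone gave -0.15 for miR-23b-5p and -0.068 for miR-27b-3p, and totals alone -0.18 for miR-23b-5p. Without the 4 deepest, miR-24 was at -0.90 and miR-27a-3p at 0.056; without the 2 deepest 32 °C libraries, miR-24 was at -0.72 and miR-27e at -0.069. miR-27a-3p was at 0.72 with voom, 0.92 with the block and 0.15 with TMM on unfiltered totals, and miR-27d at -0.48 with rows merged. Leaving out single libraries gave -0.37 to 2.27 for miR-27a-3p, -4.43 to 2.26 for miR-210-3p, -0.22 to 1.59 for miR-24, -0.0001 to 1.00 for miR-23b-5p and, for LPS minus control of miR-27d, -3.66 to 0.71. In percentage points of arm share, miR-27b at 32 minus 24 °C lost its call when thinned (7.50) and without the 4 deepest (7.59). LPS minus control with single libraries left out ran from -16.9 to 2.80 for miR-210, -3.12 to 0.135 for miR-23a and -7.08 to 1.36 for miR-23b. The causes were not tested. Depth limits the rare rows: 4 members with a count were not tested, and a count of 0 allows up to 3 reads.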
